A study of Mus musculus with 12 samples.

Results

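Chromatin remodelers and bromodomain proteins were followed in mouse round spermatids (RS) as the genes whose symbols begin with Chd1 to Chd9, Smarc, Brd with a digit, Brdt, Arid1 to Arid5, Ino80, Baz1 or Baz2, without pseudogenes. This choice by name took 53 of the 28643 symbols in the table. Of these, 50 belong to remodeler, bromodomain or ARID families, and the other 3 (Chd3os, Brd3os and Ino80dos) are named only for a neighbouring gene. Cycloheximide was present while RS were isolated by FACS from 8-week-old C57BL/6 males that were heterozygous (Igf2bp3+/-, the control) or homozygous (Igf2bp3-/-) for a Cas9 frameshift in the first KH domain of Igf2bp3, an RNA-binding protein. By the methods, the Igf2bp3-/- males chosen had impaired fertility, and every library carried at least 1 mutant allele, since no wild-type male was sequenced. Total input RNA (RNA-seq) and mRNAs carrying at least 4 ribosomes (ribosome nascent-chain complex sequencing, RNC-seq) were each measured in 3 replicates per genotype, which gave 12 libraries. The study calls the replicates biological and isolated RS mouse by mouse. The labels do not tie libraries to animals, so p-values measure the spread between these libraries. A part of each extract gave the RNA-seq input and the rest went to RNC-seq, so loading and TE compare libraries of shared preparations.

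Remodelers use ATP to slide, evict or exchange nucleosomes, and they act as multi-subunit complexes built around an SNF2-type ATPase: SWI/SNF (BAF), CHD-based complexes such as NuRD, ISWI and INO80. Bromodomains bind acetylated lysines, and the BET proteins carry a pair of them. In spermatids, histones are hyperacetylated and then replaced by transition proteins and protamines, and the testis-specific BET protein BRDT and the remodeler CHD5 are both known to be needed for this exchange.

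The values are FPKM, a read density corrected for transcript length and library size, and levels are compared between genes on that scale only. Round spermatid markers summed to between 562 and 672 FPKM in Igf2bp3+/- RNA-seq and spermatogonial markers to between 3.87 and 5.20 FPKM. Spermatocyte markers summed to between 71.0 and 91.9 FPKM in the same libraries. In Igf2bp3-/- RNA-seq, round spermatid markers summed to between 694 and 838 FPKM, with 6 of 6 changes positive and 0 past the limit. Spermatogonial markers there summed to between 3.92 and 4.31 FPKM and spermatocyte markers to between 84.0 and 109 FPKM. Leydig cell markers differed with genotype: 7 of the 7 tested had a positive RNA-seq change and 4 passed the limit, with sums of 15.4 to 22.6 FPKM in Igf2bp3+/- and 48.7 to 55.2 FPKM in Igf2bp3-/- RNA-seq libraries, and 6.82 to 14.3 against 51.5 to 103 FPKM in RNC-seq; Hsd17b3 was at 0 in the Igf2bp3+/- RNA-seq libraries. Macrophage and blood markers also differed in RNA-seq, with 7 of 7 changes positive, 2 past the limit and sums of 5.98 to 6.66 against 12.8 to 14.6 FPKM. Of 4 Sertoli markers tested, 3 had positive changes and 0 passed in limma, with sums of 1.64 to 1.97 against 2.44 to 2.51 FPKM. Of 4 peritubular markers tested, 1 had a positive change and 0 passed, with sums of 1.55 to 1.73 against 1.05 to 1.60 FPKM. In RNC-seq, macrophage and blood sums were 11.1 to 14.4 against 16.4 to 33.2 FPKM, with 5 of 5 changes positive. Sertoli sums there were 0.587 to 0.873 against 1.40 to 1.93 FPKM, and peritubular sums 0.783 to 1.18 against 1.32 to 2.09 FPKM. Each of these lists had 3 of 3 changes positive, and 0 markers of the 3 lists passed in RNC-seq. The part of these cell types in the results for the remodelers was not tested. In such bulk samples, fewer cells of a type and less RNA per cell cannot be told apart.

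Together the 53 genes held 0.178% to 0.185% of all FPKM in the Igf2bp3+/- RNA-seq libraries and between 0.164% and 0.175% in Igf2bp3-/- RNA-seq. On polysomes they took less, between 0.0742% and 0.0942% in Igf2bp3+/- and between 0.0831% and 0.145% in Igf2bp3-/-. The Igf2bp3-/- RNC-seq libraries stood apart from each other: of the 52 genes above 0 in that group, replicate 2 was the highest of the 3 libraries for 36 and replicate 3 the lowest for 42. Lists and named genes of the genotype comparisons on polysomes are therefore given with their values when 1 library was left out.

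**Figure D1:**
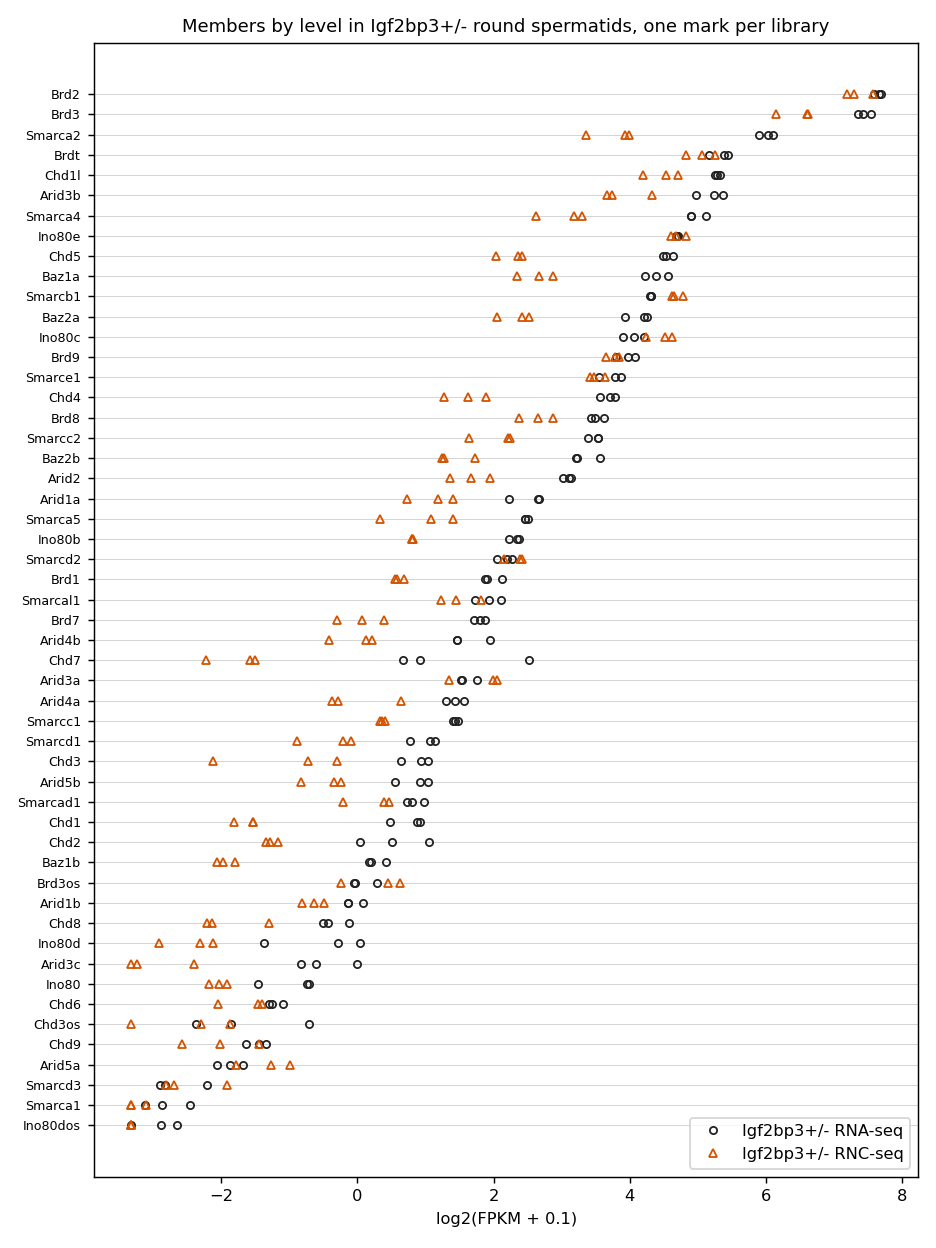
Level of 52 of the 53 genes in Igf2bp3+/- round spermatids, as log2(FPKM + 0.1) on the horizontal axis, with 1 mark per library (circles, RNA-seq; triangles, RNC-seq) and genes ordered by mean RNA-seq FPKM. Brd2 and Brd3 stand at the top, and for most genes the triangles lie to the left of the circles.

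The BET genes Brd2 and Brd3 held the top of the order in total RNA. Brd2, a ubiquitous BET protein that binds acetylated H4, had 192, 206 and 202 FPKM in the Igf2bp3+/- RNA-seq libraries, and its close relative Brd3 had 164, 186 and 172. Every Brd2 library lay above every Brd3 library, and every Brd3 library above the next gene, Smarca2. Brdt (chromosome 5, 107331159 to 107387058 in GRCm38, plus strand) came next, with 41.8, 43.6 and 35.7 FPKM in the control and 44.5, 38.3 and 41.8 FPKM in Igf2bp3-/-, and the genotypes overlapped. Within single control RNA-seq libraries, Brd2 was between 4.60 and 5.67 times as high as Brdt. Up to 9.78% of the exonic bases of Brd2 overlap genes on the opposite strand, and since use of strand in quantification is not stated, its value is uncertain over that part.

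In SWI/SNF, the catalytic ATPase Smarca2 (BRM) exceeded its alternative Smarca4 (BRG1). Smarca2 had 65.3, 59.3 and 68.7 FPKM and Smarca4 29.9, 34.6 and 29.8 FPKM in the Igf2bp3+/- RNA-seq libraries, a ratio of 1.72 to 2.31 within libraries. Among the core subunits, Smarcb1 (SNF5) had 19.7 ± 0.142 FPKM, Smarce1 13.3 ± 1.51, Smarcc2 11.1 ± 0.685 and Smarcc1 2.61 ± 0.0637 (SD, n = 3). The DNA-binding ARID subunits that tell the BAF and PBAF forms apart had 5.67 ± 0.948 FPKM for Arid1a, 0.861 ± 0.0888 for Arid1b and 8.41 ± 0.385 for Arid2. Of the interchangeable subunits, Smarcd2 had 4.42 ± 0.337 and Smarcd1 1.89 ± 0.259 FPKM, whereas Smarcd3, a subunit known from heart and muscle, had 0.0640 ± 0.0460 FPKM and shares 48.2% of its exonic bases with genes on the opposite strand.

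Among the CHD proteins, Chd5 was the highest ATPase of the NuRD class. Chd5 (chromosome 4, 152338651 to 152390194, plus strand) had 24.8, 22.2 and 23.0 FPKM in the control RNA-seq libraries, between 1.68 and 2.11 times Chd4, and Chd4 was between 6.50 and 8.90 times Chd3. Chd1l (ALC1), a remodeler recruited by poly(ADP-ribose), had 39.0 ± 1.13 FPKM and came directly after Brdt in the order, with overlapping ranges. Class III members were low: Chd8 had 0.686 ± 0.112, Chd6 0.332 ± 0.0322 and Chd9 0.261 ± 0.0353 FPKM (SD, n = 3). Chd7, mutated in CHARGE syndrome, was uneven, with 5.66, 1.49 and 1.80 FPKM in the 3 control libraries, so that its mean rests largely on replicate 1.

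For ISWI, the accessory subunit Baz1a (ACF1) had 20.9 ± 2.46 FPKM, Baz2a (TIP5, of the nucleolar NoRC complex) 17.5 ± 2.08 and Baz2b 10.1 ± 1.45, against 1.10 ± 0.119 for Baz1b (WSTF). The ISWI ATPase Smarca5 (SNF2H) had 5.43, 5.56 and 5.42 FPKM. Its value is uncertain, since at least 50% of the transcript of the pseudogene Smarca5-ps matched it at 95% identity or more. The alternative to Smarca5, Smarca1 (SNF2L) on the X chromosome, had 0.0825, 0.0370 and 0.0152 FPKM. In INO80, the small subunits Ino80e and Ino80c had 25.8 ± 0.270 and 16.7 ± 1.81 FPKM, while the ATPase Ino80 itself had 0.426 ± 0.141 FPKM. The lowest 5 genes in control RNA-seq were Chd9, Arid5a (0.175 ± 0.0364 FPKM), Smarcd3, Smarca1 and the noncoding neighbour Ino80dos (0.0318 ± 0.0300 FPKM, and listed at 0 in all 6 RNC-seq libraries). Of the neighbours in the order of all 53, only 12 pairs were separated in every library, among them Brd2 and Brd3, Brd3 and Smarca2, Smarca2 and Brdt, and Ino80e and Chd5; for the others, the ranges of adjacent genes overlapped.

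Polysome loading was taken as the difference of log2(FPKM + 0.1) between RNC-seq and RNA-seq of a genotype, with limma over all genes and a Benjamini-Hochberg adjusted p under 0.05 as the limit. It is relative to the other mRNAs of the libraries and understates differences of genes with low FPKM. In Igf2bp3+/- RS, most remodeler mRNAs were under-represented on polysomes: of 50 tested, 33 were lower in RNC-seq, 1 was higher and 16 did not pass. Over all 19798 genes tested, 26.3% were lower and 17.3% higher. The median of the 50 was -1.37 on the log2 scale, against -0.14 over all genes. When libraries were centred on their medians, the remodelers had a median of -1.19 with 32 lower and 2 higher, and all genes one of 0.04 with 4109 lower and 4848 higher.

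**Figure D2:**
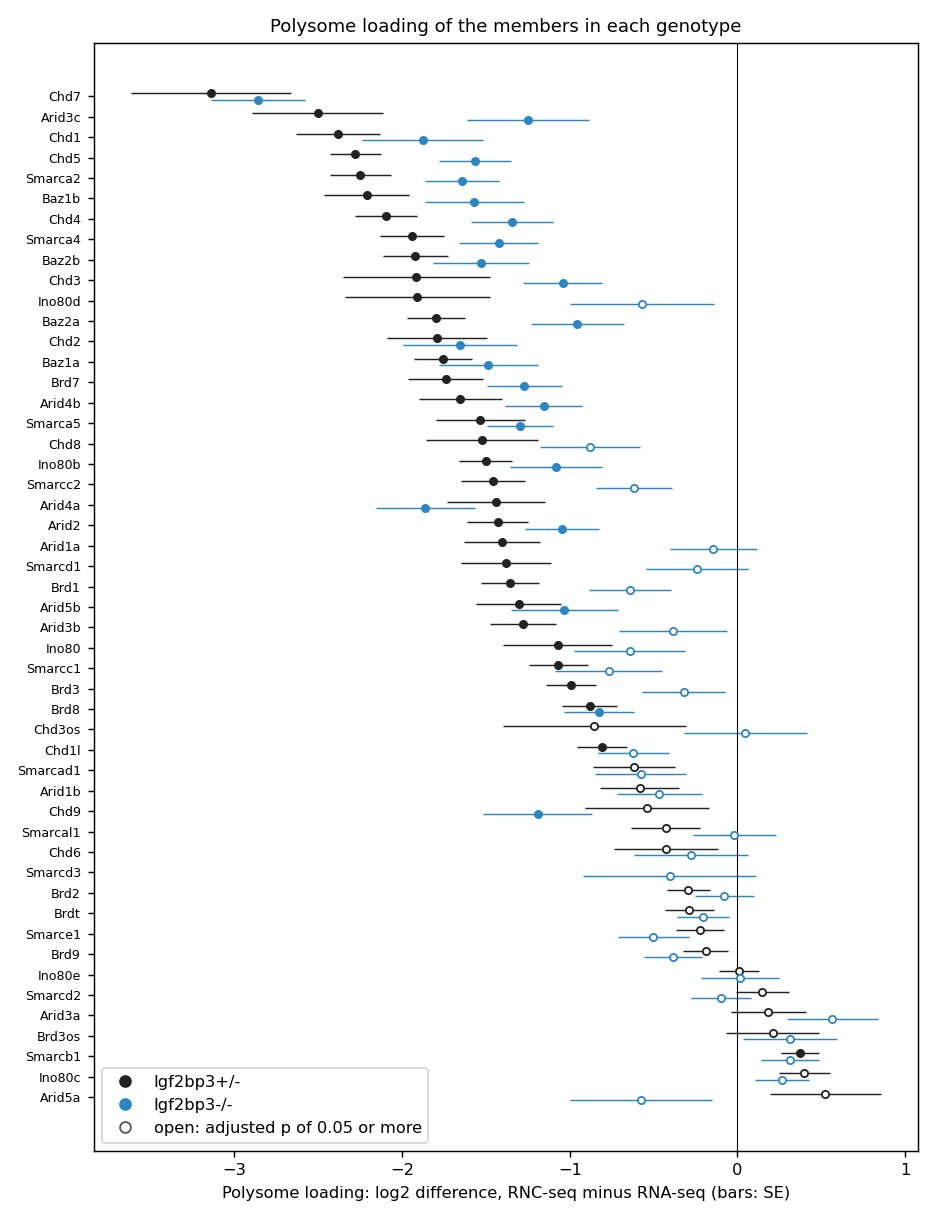
Polysome loading per gene, for the genes named on the vertical axis, as the log2 difference between RNC-seq and RNA-seq on the horizontal axis (black, Igf2bp3+/-; blue, Igf2bp3-/-; bars, SE from limma; filled marks, adjusted p under 0.05). In the control, 32 of the 33 genes that passed as lower are drawn as filled black marks left of 0 and 1, Smarcb1, lies right of it, and 22 of the 23 of Igf2bp3-/- are filled blue marks left of 0.

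Some large ATPases were among the genes with the lowest loading. Chd7 had 0.115, 0.237 and 0.251 FPKM in the control RNC-seq libraries, all below its RNA-seq values, a loading of -3.14 ± 0.48 (SE; limma, adjusted p of 0.00122). Leaving out each library in turn gave values from -3.49 to -2.56, the latter without RNA-seq replicate 1. Chd5 fell from 23.3 ± 1.30 FPKM in total RNA to 4.76 ± 0.684 FPKM on polysomes (3.98, 5.02 and 5.27 per library), a loading of -2.28 ± 0.15 (adjusted p of 5.78e-05). All 5 CHD proteins of classes I and II were lower on polysomes, from -1.79 for Chd2 (18.4% of whose exonic bases are shared with a near-identical transcript on the same strand) to -2.38 for Chd1, with -2.10 ± 0.19 for Chd4. Of the large class III ATPases, Chd6 (-0.42 ± 0.31, adjusted p of 0.297 in limma) and Chd9 (-0.54 ± 0.37, adjusted p of 0.269) did not pass.

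Smarca2 had 10.2, 15.2 and 15.8 FPKM on control polysomes, with no overlap with its total RNA, and its loading was -2.25 ± 0.18 (adjusted p of 8.95e-05). Smarca4 stood at -1.94 ± 0.19 with an adjusted p of 0.000187. Its 3 polysome values were 6.05, 9.78 and 8.95 FPKM. All 5 ISWI genes tested were lower, from -2.21 for Baz1b to -1.53 for Smarca5. The same was true of Brd1, a scaffold of histone acetyltransferase complexes, and Brd8, a subunit of the TIP60 complex, at -1.36 and -0.88.

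The small subunits Smarcb1 and Ino80c lay towards the other end. Not all small subunits did: Ino80b (-1.50 ± 0.16, adjusted p of 0.000249 in limma) and Smarcd1 (-1.38 ± 0.27, adjusted p of 0.00384) were lower on polysomes. Smarcb1 was the 1 gene that passed as higher on polysomes, with 27.4, 24.5 and 25.0 FPKM against 19.8, 19.9 and 19.6 FPKM in total RNA, a loading of 0.37 ± 0.12 (adjusted p of 0.0301). That call was lost, at adjusted p of 0.0543 to 0.0972, when any of 5 of the 6 control libraries was left out. Ino80c had 24.6, 18.9 and 22.8 FPKM on polysomes against 18.5, 16.7 and 14.8 FPKM, a loading of 0.40 ± 0.15 that missed the limit (adjusted p of 0.0594) but passed after centring (0.00436) and without control RNC-seq replicate 2 (0.0204). Loading was 0.18 ± 0.22 for Arid3a, 0.21 ± 0.28 for Brd3os and 0.15 ± 0.16 for Smarcd2. Of the BET genes, Brd2 (-0.29 ± 0.13, adjusted p of 0.0943) and Brdt (-0.29 ± 0.15, adjusted p of 0.151) did not pass, whereas Brd3 (-0.99 ± 0.15, adjusted p of 0.00118) was lower on polysomes. Brdt had 38.0, 28.2 and 33.4 FPKM there, so the library with the highest value reached into its range in total RNA.

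Coding length moved with loading over the whole table. The remodelers have long coding sequences, with a median of 3312 nt over 51 genes against 1335 nt over 13357 coding genes. Over these coding genes, which are not independent replicates, Spearman's rho between log2 coding length and control loading was -0.533 (Pearson's r -0.541). Over 49 remodelers it was -0.547 (-0.566). Length enters both sides of every point, through the correction in FPKM and through coding length. Coding length was that of GENCODE M21, and the annotation behind the FPKM is not given. In the band from 4000 to 6000 nt, 12 of 12 remodelers were lower on polysomes against 73.9% of 575 genes, with medians of -1.87 and -1.20. From 3000 to 4000 nt it was 8 of 9 against 66.0%, above 6000 nt 5 of 8 against 75%, and up to 1000 nt 0 of 3 against 12.0%. In the other bands it was 5 of 10 against 28.3% from 1000 to 2000 nt and 3 of 7 against 50.2% from 2000 to 3000 nt.

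**Figure D3:**
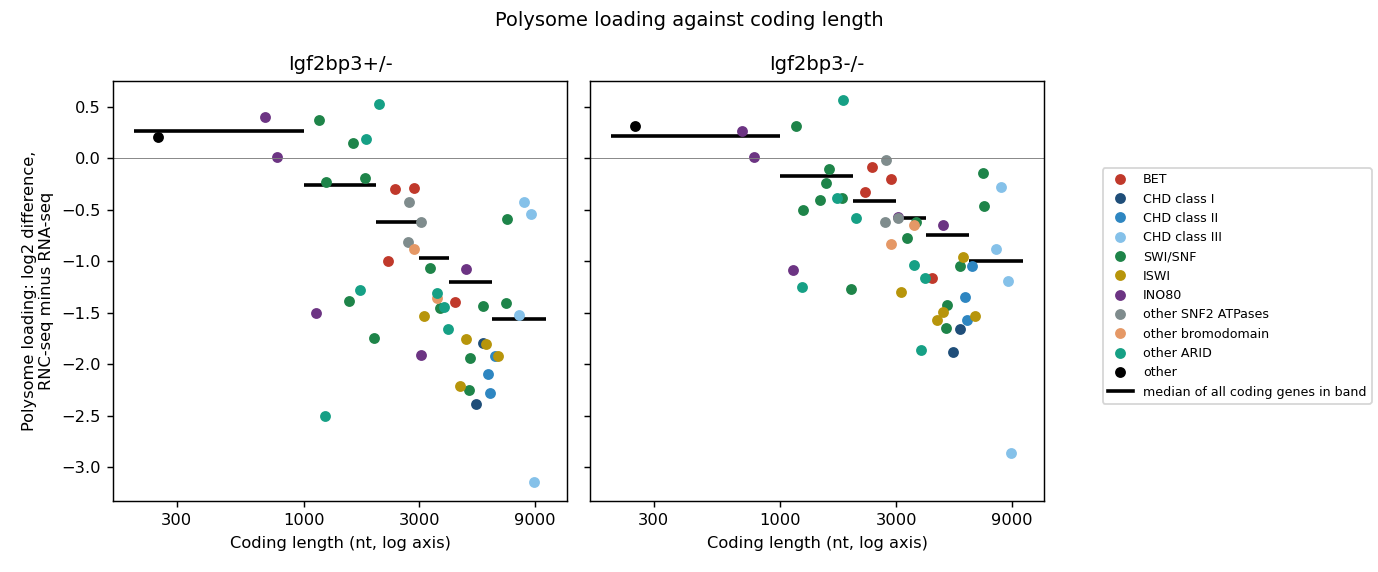
Polysome loading (log2 difference between RNC-seq and RNA-seq) against coding length in nt on a log axis, for Igf2bp3+/- on the left and Igf2bp3-/- on the right; points are remodelers coloured by family and black bars are medians over all coding genes in each length band. Loading falls with length for the remodelers and for all genes, and the bar for 4000 to 6000 nt stands at -1.20 in the control and -0.74 in Igf2bp3-/-.

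Set against the median of genes of the same length band, 32 of 49 remodelers lay below it in the control and 17 above, with a median difference of -0.34. The farthest below were Arid3c (-2.24, from 0, 0.00658 and 0.0903 FPKM on polysomes), Chd7 (-1.58) and Brd7 (-1.48), a bromodomain subunit of PBAF. These 3 were chosen after their values were seen, as were the following. Arid5a (1.14), Chd6 (1.13) and Chd9 (1.02) lay farthest above, all with under 1 FPKM. Chd5 and Smarca2 lay 1.08 and 1.05 below their band, while Brdt and Brd2 lay 0.33 and 0.32 above theirs.

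In Igf2bp3-/- RS, 23 of 51 remodelers tested were lower on polysomes and 0 higher in limma, against 11% lower and 9.48% higher over all genes. Without the adjustment, 0 of them had a p under 0.05 for a higher level, where 16.6% of all genes did. When RNC-seq replicate 3 was left out, 1 passed the adjusted limit as higher, where 5.17% of all genes did. With all libraries, the median was -0.64, against -0.06 over all genes. Of the 33 genes lower in the control, 22 were also lower in Igf2bp3-/- (66.7% of the control's genes and 95.7% of those in Igf2bp3-/-), and the 1 gene that passed in Igf2bp3-/- alone was Chd9. All 10 ISWI, NuRD-class and class I CHD genes tested passed again, while of the SWI/SNF genes 4 of 14 did, against 8 of 13 in the control. The count in Igf2bp3-/- depended on the libraries, with 10, 12 and 13 lower genes without RNA-seq replicate 1, 2 and 3, and 29 and 16 without RNC-seq replicate 2 and 3. The share over all genes moved as well: in the same order, 3.40%, 3.92%, 4.50%, 17.0% and 7.04% were lower. Whether a gene's loading differed between the genotypes is the test of translation efficiency (TE) given after the tests of each assay.

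In total RNA the question was whether loss of IGF2BP3 changed the abundance of these mRNAs. Of 51 tested, 0 passed the limit in limma, against 0.197% of 20352 genes for an increase and 0.059% for a decrease. An unadjusted p under 0.05 was reached by 1 gene with a positive and 5 genes with a negative change (10.4% and 5.32% of all genes), and no alternative setting with an adjusted p gave a call. The median log2 change was -0.08, against 0.05 over all genes, and 22 of 51 changes were positive, against 56.2% of all genes. In 11 genes every Igf2bp3-/- library lay below every control library, and in 3 above, where 8.68% and 14.1% of all genes did so.

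**Figure D4:**
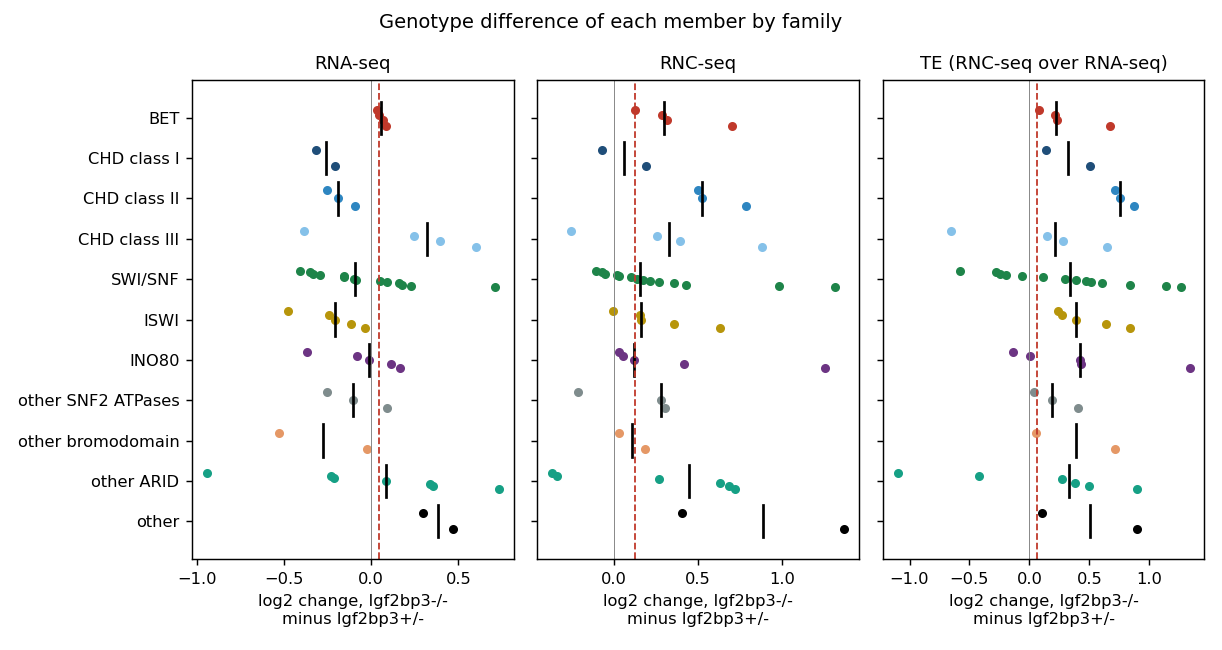
Log2 change between genotypes (Igf2bp3-/- minus Igf2bp3+/-) of each gene in RNA-seq, RNC-seq and TE, by family; each point is a gene, black bars are family medians and the dashed red line is the median of all genes tested. Points centre near 0 in RNA-seq and lie mostly right of 0 in RNC-seq and TE, where 41 of 50 are positive.

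Chd5 had 20.1, 20.6 and 20.6 FPKM in Igf2bp3-/- RNA-seq, all below the control libraries, which was -0.19 ± 0.09 (SE) on the log2 scale (limma, adjusted p of 0.346). For Brdt the difference was 0.04 ± 0.11 (adjusted p of 0.874), and its sign turned in 4 of the alternatives. Smarca2 had 52.4, 53.1 and 47.6 FPKM against 65.3, 59.3 and 68.7, with no overlap, and its change of -0.34 ± 0.09 had the smallest adjusted p of the 51 (0.191).

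The largest changes among genes of at least 1 FPKM were 0.60 ± 0.43 for Chd7, 0.36 ± 0.22 for Arid5b, a regulator of fat and cartilage genes, and 0.34 ± 0.14 for Arid3a. The value of Chd7 was 1.18 without control replicate 1 and 0.25 without control replicate 2, and that of Arid5b was 0.18 without Igf2bp3-/- replicate 3. At the other end stood Brd1 (-0.53 ± 0.15, from 3.82 ± 0.381 to 2.63 ± 0.327 FPKM), Smarcc2 (-0.41 ± 0.13) and Ino80b (-0.37 ± 0.24), with adjusted p of 0.197, 0.227 and 0.480. Ino80b had 4.75, 4.55 and 2.43 FPKM in Igf2bp3-/-, and its change was -0.0637 without replicate 3, while Smarcc2 had -0.28 without that library. By family, the BET genes Brd2 and Brd3 had 0.07 and 0.03, whereas all 5 ISWI genes were negative, from -0.48 for Baz1b to -0.03 for Baz2b. Removing the trend with transcript length, a setting added after seeing the data, moved the median of the 51 to -0.00191 and that of all genes to 0.00649.

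On polysomes, 0 of 50 genes tested passed the limit in limma, against 0.0787% of 19051 genes for an increase and 0.0367% for a decrease. An unadjusted p under 0.05 came with a positive change in 6 and with a negative one in 0, where it did in 5.36% and 1.12% of all genes. Positive changes were found for 41 of 50, against 65.3% of all genes, with a median of 0.26 against 0.13. With the libraries centred, the medians were 0.14 and 0.0078 with 35 positive, and with the trend with transcript length removed 0.05 and -0.0017 with 30 positive. Without Igf2bp3-/- RNC-seq replicate 2 the median of the remodelers was 0.15, with 3 genes at an unadjusted p under 0.05, and without replicate 3 it was 0.43, with 12. All of these changes were positive, and 4.61% and 9.20% of all genes had such a positive change in these settings. In 7 genes all Igf2bp3-/- libraries lay above all control libraries and in 0 below, where 9.44% and 1.85% of all genes did so.

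Arid1a, the ARID subunit of BAF that is an alternative to Arid1b, had the largest change among genes of at least 1 FPKM. It had 1.55, 2.17 and 2.56 FPKM on control polysomes and 4.37, 7.83 and 4.25 FPKM in Igf2bp3-/-, with no overlap, which was 1.32 ± 0.30 on the log2 scale (limma, adjusted p of 0.341). With 1 library left out at a time, this value ranged from 1.03 to 1.47. Its total RNA overlapped between the genotypes (4.57, 6.20 and 6.23 against 5.80, 6.78 and 5.03 FPKM). Smarcd1 followed with 0.443, 0.765 and 0.839 against 1.47, 1.64 and 1.15 FPKM, also without overlap, and a change of 0.98 ± 0.32 (adjusted p of 0.676), though 12.7% of its exonic bases overlap genes on the opposite strand.

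The change of Smarcd1 was 0.74 to 1.13 with 1 library left out. Arid3a had 0.72 ± 0.31 (0.50 to 1.02 with 1 library left out), and its libraries overlapped. Brd3 had 70.5, 97.1 and 97.6 against 133, 213 and 102 FPKM, with no overlap and a change of 0.70 ± 0.27 (adjusted p of 0.744), which was 0.41 without Igf2bp3-/- replicate 2 and 0.94 without replicate 3. Chd5 had 7.97, 8.13 and 4.92 FPKM on Igf2bp3-/- polysomes, and replicate 3 lay inside the control range, with a change of 0.52 ± 0.26 (adjusted p of 0.777) that was 0.40 without replicate 2 and 0.76 without replicate 3. For Brdt the value was 0.13 ± 0.20 (adjusted p of 0.930), and the smallest among genes of at least 1 FPKM were those of Smarcad1 (-0.21 ± 0.32, and -0.42 to -0.04 with 1 library left out), Brd9 (-0.11 ± 0.20) and Smarcd2 (-0.07 ± 0.23).

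**Figure D5:**
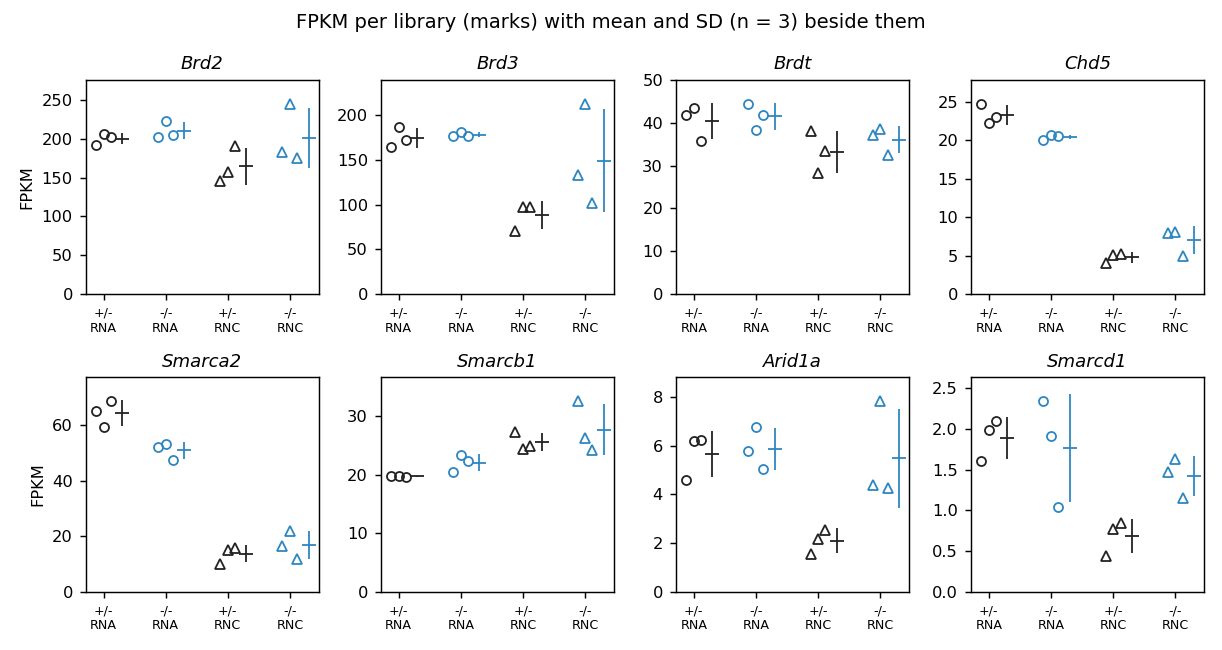
FPKM in each of the 12 libraries for 8 genes on linear axes from 0 (circles, RNA-seq; triangles, RNC-seq; black, Igf2bp3+/-; blue, Igf2bp3-/-), with the mean and SD of 3 libraries to the right of the marks. Chd5 and Smarca2 lie far lower in RNC-seq than in RNA-seq, Smarcb1 lies higher, and for Arid1a and Smarcd1 the Igf2bp3-/- RNC-seq libraries lie above those of the control.

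TE asks whether the share of an mRNA on polysomes differed between the genotypes, as the interaction of genotype and assay over the 12 libraries. Of 50 genes, 0 passed the limit in limma, where 0.00543% of 18414 genes did for an increase and 0% for a decrease. Unadjusted, 9 had a p under 0.05 with a positive change and 0 with a negative one, against 5.54% and 1.58% of all genes. With the libraries centred, these were 3 and 1 against 2.67% and 5.87% of all genes. Under quantile normalization they were 4 and 0 against 3.79% and 3.89%. The 9 became 4 without Igf2bp3-/- RNC-seq replicate 2 and 15 without replicate 3, where 4.27% and 11.3% of all genes had such a positive change. With an adjusted p, 0 passed under any alternative. Changes were positive for 41 of 50, where 55.6% of all genes were, with a median of 0.34 against 0.06 over all genes. With the libraries centred, the medians were 0.21 and -0.07. The median of the remodelers was 0.19 without Igf2bp3-/- RNC-seq replicate 2 and 0.55 without replicate 3.

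TE change also moved with coding length over all genes, from a median of -0.07 up to 1000 nt to 0.53 above 6000 nt. Against the genes of their own length band, 25 of 49 remodelers lay above the median and 24 below, with a median difference of 0.01. With the trend with transcript length removed, the median of the 50 was 0.06, with 29 positive, and 3 positive and 2 negative changes had an unadjusted p under 0.05.

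By gene, Arid1a had a TE of 0.370 in the control and 0.934 in Igf2bp3-/- as ratios of mean FPKM, 1.26 ± 0.36 on the log2 scale (unadjusted p of 0.00362, adjusted p of 0.686, limma), with 0.98 to 1.41 when 1 library was left out. Smarcd1 went from 0.361 to 0.803 (1.14 ± 0.42) and Arid3b, a DNA-binding factor of the ARID3 group, from 0.416 to 0.835 (0.90 ± 0.41), with adjusted p of 0.686 and 0.699. Smarcd1 ranged from 0.82 to 1.37 with 1 library left out, and Arid3b had 0.50 without Igf2bp3-/- RNC-seq replicate 2 and 1.24 without replicate 3. All 3 NuRD-class ATPases had positive values, with 0.71 ± 0.27 for Chd5, 0.75 ± 0.32 for Chd4 and 0.87 ± 0.52 for Chd3. With 1 library left out these ranged from 0.59 to 0.95, from 0.59 to 1.01 and from 0.34 to 1.25, the lowest Chd3 value being without control RNC-seq replicate 1. The TE of Chd5 was 0.204 in the control and 0.343 in Igf2bp3-/-, with an unadjusted p of 0.0190 and an adjusted p of 0.686. Chd5 is on a list that the study drew from TE in these same libraries and from IGF2BP3 targets found by crosslinking and immunoprecipitation. Its TE here is therefore no independent evidence. The study also reported binding of IGF2BP3 to Chd5 mRNA in testes by immunoprecipitation with qPCR, which these libraries do not test.

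Brdt had TE values of 0.823 and 0.869, a change of 0.08 ± 0.21. Among genes with a mean of at least 1 FPKM over the 12 libraries, the smallest change was -0.42 ± 0.43 for Arid4a. Arid4a, a retinoblastoma-binding subunit of SIN3 complexes, had means of 0.951 FPKM on control and 0.717 FPKM on Igf2bp3-/- polysomes. Next came Smarce1 (-0.28 ± 0.26) and Smarcd2 (-0.25 ± 0.22). With 1 library left out, Arid4a ranged from -0.62 to -0.10, Smarce1 from -0.44 to -0.12 and Smarcd2 from -0.33 to -0.17. By the ratio of mean FPKM alone, with no test, 19 of 51 genes had a TE over 1.5-fold higher and 3 over 1.5-fold lower in Igf2bp3-/-, against 20% and 9.27% of 19433 genes. The 3 lower ones (Arid5a, Chd9 and Smarcd3) all had under 0.5 FPKM in every group mean. Among the higher ones, Ino80 and Chd3os were also under 0.5 FPKM in every group mean. Ino80d and Arid3c, higher as well, had means of 0.0883 and 0.0323 FPKM on control polysomes. Without Igf2bp3-/- RNC-seq replicate 2, 10 were higher, and the share over all genes in that setting is not given.

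Ratios of related genes within a library do not depend on how libraries are scaled, and 12 pairs were compared without a test. In each assay 10 of the 12 overlapped between the genotypes, and the share over other gene pairs was not computed. On polysomes, Arid1a was between 3.30 and 4.18 times Arid1b in the control and between 7.35 and 12.5 times in Igf2bp3-/-, and Smarcd2 was between 5.67 and 11.6 times Smarcd1 against 2.99 to 3.61 times. In total RNA the ratios of both pairs overlapped between the genotypes. Arid1a and Smarcd1 were already named for the largest polysome changes, so their polysome ratios restate those values and are no separate evidence. The other pairs without overlap were Smarcc2 over Smarcc1 (3.85 to 4.51 against 3.30 to 3.47) and Arid3b over Arid3a (11.2 to 13.6 against 6.59 to 10.2), both in total RNA. Chd5 over Chd4, Smarca2 over Smarca4 and Brd2 over Brdt overlapped in both assays.

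Of 58 further subunits of the same complexes that the name rule does not take, 57 were in the table and 54 were tested. In control loading 19 were lower (35.2%, against 26.3% of all genes) and 8 higher (14.8% against 17.3%), with a median of -0.31. In Igf2bp3-/- 7 were lower (13.0% against 11%) and 3 higher (5.56% against 9.48%), with a median of -0.19. The large ATPase Srcap, which deposits H2A.Z, had the lowest control loading at -3.20 ± 0.29, and Bptf, the largest subunit of NURF, had -1.76 ± 0.20. At the other end stood the NuRD subunit Mta3 (0.87 ± 0.17), Znhit1 of the SRCAP complex (0.83 ± 0.14) and the AAA+ ATPase Ruvbl2 (0.59 ± 0.10), all past the limit in limma. Between genotypes, 0 of the 54 passed in limma in RNA-seq, RNC-seq or TE, with medians of 0.08, 0.13 and 0.08.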

How the data were processed

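RNA-seq and RNC-seq of sorted round spermatids gave 12 libraries. The authors trimmed reads with Trim Galore 0.6.6, aligned them to GRCm38 with Hisat2, quantified them with StringTie 2.1.7 and deposited 1 table of FPKM per gene symbol; the annotation release and use of strand are not given in the sources used here, and the labels and the methods describe different library kits and instruments. The table holds no read counts, so depth is unknown and no counting interval was computed. Of 28668 symbols, 25 turned into dates by spreadsheet software (0.0995% of FPKM) were left out. Columns named WT are the Igf2bp3+/- libraries by the labels.

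A pseudocount of 0.1 was added before taking log2, and limma 3.58.1 (R 4.3.3) was fitted (moderated variances with trend, two-sided, Benjamini-Hochberg over all genes with mean FPKM above 0.1, limit 0.05), which was tested on simulated data. Genotype was tested within RNA-seq and within RNC-seq, TE as the interaction over 12 libraries, and loading as RNC-seq against RNA-seq within a genotype. The study's DESeq2 test needs counts and was not used. Positions, lengths and overlaps came from GENCODE M21 (52 of 53 genes matched), and near-identical copies from BLAST 2.17.0 at 95% identity over 50% of the transcript. Named genes are Chd5, Brdt, the 5 highest and 5 lowest by level and by loading, and the 3 with the largest and smallest change per genotype comparison among genes of at least 1 FPKM; others were named after their values were seen. Members, lists and tests were chosen with earlier results of these data known. Alternatives covered pseudocount, filter, scaling, weights, block, criterion and each library left out. Values of 1 member enter the counts but are not reported here by name. Protein sequences were not used here.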

Additional observations from a re-analysis of the deposited data

How the results depend on the processing

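The numbers of remodeler genes called in RNA-seq, RNC-seq and TE (0 each) held under all alternatives with an adjusted p. Under an unadjusted p below 0.05 with a 1.5-fold change they were 1 (lower), 6 and 9 (all higher), where 2.53%, 4.73% and 5.19% of all genes met that rule in the same direction. In control loading, 19 genes, all lower, met an unadjusted p below 0.05 with an absolute log2 change over 1.5 (8.49% of all genes), and 8, all lower, did in Igf2bp3-/- (3.02%). Loading medians moved with the pseudocount, to -0.79 (control) and -0.44 (Igf2bp3-/-) with 1 and to -0.84 in Igf2bp3-/- with 0.01. Leaving out 1 library gave 10 to 29 calls in Igf2bp3-/- loading, where 3.40% to 17.0% of all genes were lower, and a median of -0.95 to -0.50. It also gave a TE median of 0.19 to 0.55, and 13 to 30 genes past 1.5-fold in TE ratio. The latter were 22 in all, 9 with a 2-fold limit and 12 with a mean above 1 FPKM. Shares over all genes are not given for these alternative TE-ratio counts, so nothing about the remodelers is read from how they moved. The TE median was 0.0586 with the length trend removed, a setting chosen after seeing the data. Brdt changed sign in RNA-seq with quantile normalization (-0.0545) and array weights (-0.0330), in RNC-seq with the length trend removed (-0.0654) and quantile normalization (-0.0125), and in TE with the length trend removed (-0.147) and median centring (-0.0466). With 1 library left out, its change ranged from -0.0432 to 0.0999 in RNA-seq (negative without control replicate 3 or Igf2bp3-/- replicate 1) and from -0.03015 to 0.186 in TE (negative without control RNC-seq replicate 2), and that of Smarcd2 in RNC-seq from -0.155 to 0.00929 (positive without Igf2bp3-/- replicate 3). The cause of these changes was not tested.

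RNA-seq and RNC-seq came from shared extracts, but no source used here says that equal replicate numbers mark the same extract, and the values did not show it. Deviations of same-numbered libraries correlated between -0.0801 and 0.0484 in RNA-seq, between -0.0830 and 0.241 in RNC-seq, between -0.104 and 0.205 across assays in the control and between -0.0513 and 0.165 in Igf2bp3-/-, over 12265 genes. With the replicate number as a block, 0 genes were called in RNA-seq, RNC-seq and TE, 33 in control loading (Smarcb1 no longer, adjusted p of 0.0523 in limma) and 22 in Igf2bp3-/- loading. Unknown read depth limits all genes under 1 FPKM.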
